A study of Mus musculus with 15 samples.

Results

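Blood stem and progenitor cells carrying a HOXB4 vector were compared between 20 and 6 weeks after transplantation, the widest interval in these cells. The comparison uses 3 arrays at 20 weeks and 3 at 6 weeks, chosen by their titles, out of 15 arrays in 5 groups of 3. The 3 HOXB4 arrays at 12 weeks serve to place a gene between both ends. GFP arrays at 12 and 20 weeks were used for reference levels and share in the estimate of the spread.

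In all groups the donor marrow came from female C57Bl/6 mice treated with 5-FU (5-fluorouracil), and it was transplanted into lethally irradiated mice of the same strain. HOXB4 cells carried the retroviral vector MSCV-HOXB4-ires-YFP and control cells carried MSCV-ires-GFP, so that transduced cells could be sorted by their fluorescent protein. The viral promoter drives HOXB4 in every transduced cell type, and vector integrations differ from cell to cell. The sorted population is LSK, the lineage-negative Sca-1+ Kit+ fraction of bone marrow, and the cells were not cultured before RNA was extracted. The titles call the last time 20 weeks, whereas the series text gives 24 weeks. Ages of the animals are not given in the sources used here, and neither is whether the 3 arrays of a group came from separate mice. P-values therefore cover the spread among arrays of a group and nothing beyond it, and that spread may be technical. GFP cells of 6 weeks were not analysed here, so an effect of HOXB4 and of time after transplantation cannot be told apart in this comparison.

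LSK cells contain long-term stem cells together with multipotent progenitors that have begun to express genes of the lymphoid or the myeloid lineage. Lymphoid-primed progenitors carry the receptor Flt3 and open genes of antigen receptor assembly, while granulocyte-monocyte progenitors use the transcription factor Cebpa and fill primary granules with proteases and myeloperoxidase. Marrow stem cells forced to express HOXB4, a factor of the homeobox family, multiply after transplantation.

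Signals are log2 RMA values of the brightest probe set of a gene, and a difference of 1 is 2-fold. The median signal lay between 5.25 and 5.40 on all arrays. The nonspecific control probes had medians between 2.496 and 2.83 and reached up to 4.43 on HOXB4 arrays and 5.19 on GFP arrays, so that levels near these may be background. Kit, the receptor that defines the sort, was at 8.32, 8.08 and 8.22 at 6 weeks and at 7.89, 8.38 and 8.05 at 20 weeks. The groups overlap, and the difference was -0.10 ± 0.13 (SE; limma adjusted p = 0.713). Il7r, Ly6g and the Sca-1 gene Ly6a were not analysed here. Of the lineage markers that the sort removes, Cd3e, of T cells, ranged from 3.82 to 4.89 over both groups, and Ms4a1, of mature B cells, from 3.57 to 4.303. Itgam, of myeloid cells, ranged from 3.88 to 5.67. Cd3e and Ms4a1 lay near the highest control probes of these arrays, and Itgam exceeded them on most arrays. Cd4 and Cd8a, also of T cells, ranged from 5.35 to 6.12, and none of these 5 genes passed the test. Cd79a, a B lineage gene and a part of the antigen receptor, stood higher on most arrays, as given with the B lineage genes. Mouse Hoxb4 was at 6.64, 6.64 and 6.70 at 6 weeks and at 5.81, 7.05 and 6.78 at 20 weeks, a difference of -0.11 ± 0.24 (adjusted p = 0.838). The mouse probe set does not check the vector.

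Between 6 and 20 weeks 796 of 17097 genes passed the test (limma, Benjamini-Hochberg adjusted p under 0.05), which is 4.66% of the genes. Of these, 564 were higher at 20 weeks (3.3% of all genes) and 232 were lower (1.36%). A change of at least 2-fold was reached by 140 of the higher and 38 of the lower genes. Genes of lymphoid priming and of the B lineage, signalling genes of the TGF-beta and BMP pathways and inhibitors of the cell cycle were among those that rose. Genes of the granulocyte-monocyte programme and some chaperones were among those that fell. The arrays of both times did not overlap for 774 of the 796 called genes, and this was so for 18.2% of all genes.

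This count rests on the spread that all 15 arrays share. The 6-week and the 20-week HOXB4 arrays had the largest median SD between replicates, 0.203 and 0.176, against 0.114 in HOXB4 cells at 12 weeks and 0.128 and 0.145 in GFP cells. In a fit on the 3 HOXB4 groups alone 214 genes passed (1.25%), and 201 of them are among the 796, 159 higher and 42 lower. In a fit on the 6 arrays compared, with limma, 1 gene passed, Ighm, and 2111 had an unadjusted p under 0.05, against 3524 in the fit of all arrays. Of these 3524 genes 2080 were higher at 20 weeks. Leaving out 1 array at a time, 236 of the 796 genes were called in each of the 6 fits, and 167 of these were also called in the fit on the HOXB4 groups. Quantile normalization moved the share of higher genes among those called from 70.9% to 55.0%. Adjusted p-values in what follows come from the fit of all 15 arrays unless another fit is named.

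**Figure D1:**
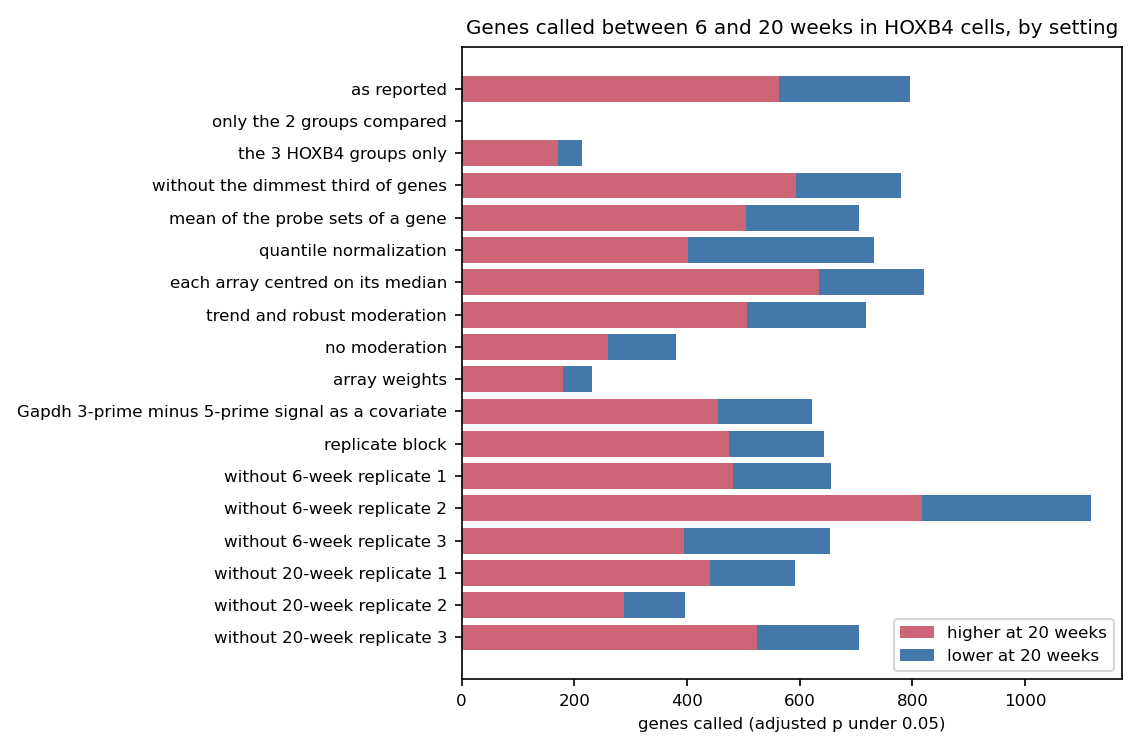
Bars give the number of genes called (x axis) under each processing setting (y axis), red for higher and blue for lower at 20 weeks. The count was 796 as reported, 214 with the 3 HOXB4 groups only, and 1 with only the groups compared, which is too short to see.

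The sequence context of some genes described here was read from RefSeq promoters on GRCm38.p6. A search of 14 motifs was made on both strands in the part of each promoter before the gene start, and the examples shown were chosen after their matches had been seen. The first is the ER stress response element, CCAAT and CCACG spaced by 9 bases, found in 0.113% of 32851 promoters and in 8 of the 22 measured genes of the unfolded protein response that have a promoter in the table. It is shown because Hspa5 is a gene of that list that fell. Each line gives a match in the orientation of the motif, with the fixed bases in capitals. The matches of Calr, Creld2 and 1 of Hsp90b1 run against the direction of the gene.
Calr (chr8:84847075-84847093, forward strand): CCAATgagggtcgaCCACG
Canx (chr11:50325800-50325818, reverse strand): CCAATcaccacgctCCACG
Creld2 (chr15:88819520-88819538, reverse strand): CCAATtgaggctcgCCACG
Dnajc3 (chr14:118937827-118937845, forward strand): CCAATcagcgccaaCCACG
Hsp90b1 (chr10:86705533-86705551, forward strand): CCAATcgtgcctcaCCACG
Hsp90b1 (chr10:86705638-86705656, reverse strand): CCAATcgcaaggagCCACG
Hspa5 (chr2:34772025-34772043, forward strand): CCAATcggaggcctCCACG
Pdia6 (chr12:17266491-17266509, forward strand): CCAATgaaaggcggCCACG
Syvn1 (chr19:6046532-6046550, forward strand): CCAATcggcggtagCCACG

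The 3 promoters that follow belong to genes that fell (Hspa5 and Mpo) or rose (Vpreb3) between 6 and 20 weeks. Each is given up to the base before the gene start, on the forward strand, with the match in capitals. Hspa5 holds the ER stress response element whose first base lies 65 bases before the start. Mpo holds GAGGAAGT, a purine-rich ETS motif, 224 bases before the start, which 2.44% of promoters and 3 of 16 primary granule genes (Elane, Mpo and Prtn3) carry. Vpreb3 holds the octamer ATTTGCAT 45 bases before the start, which 1.6% of promoters and 2 of 14 B lineage genes (Blnk and Vpreb3) carry.
Hspa5 (chr2:34771840-34772089): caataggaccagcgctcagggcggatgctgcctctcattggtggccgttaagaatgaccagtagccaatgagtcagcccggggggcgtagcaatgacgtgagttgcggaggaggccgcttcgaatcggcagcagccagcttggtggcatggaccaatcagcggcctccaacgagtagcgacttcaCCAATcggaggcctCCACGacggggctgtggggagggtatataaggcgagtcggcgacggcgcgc
Mpo (chr11:87793534-87793783): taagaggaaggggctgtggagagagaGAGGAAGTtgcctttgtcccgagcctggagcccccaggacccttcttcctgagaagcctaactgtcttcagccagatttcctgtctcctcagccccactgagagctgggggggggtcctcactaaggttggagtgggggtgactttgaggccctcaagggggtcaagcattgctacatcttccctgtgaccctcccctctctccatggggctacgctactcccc
Vpreb3 (chr10:75948050-75948299): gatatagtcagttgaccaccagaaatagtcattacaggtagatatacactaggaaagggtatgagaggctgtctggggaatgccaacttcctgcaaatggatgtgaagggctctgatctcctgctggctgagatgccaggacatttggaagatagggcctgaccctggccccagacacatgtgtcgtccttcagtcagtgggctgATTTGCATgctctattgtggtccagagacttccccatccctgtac

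Over the called genes with a promoter, 446 higher and 179 lower, the octamer was present in 2.47% of the higher and 0.559% of the lower genes, against 1.6% of 13605 tested genes. GAGGAAGT was present in 3.36% of the higher and 3.35% of the lower genes, against 2.83%. The ER stress response element was present in 0.0% of the higher and 0.559% of the lower genes, against 0.14%. The 1 lower gene with it was Hspa5, for which the motif is shown, so this share says nothing about lower genes as a set. The other motifs searched, with their share among higher genes, lower genes and tested genes, follow. They were a heat shock element, GAA, TTC and GAA spaced by 2 bases each (0.897%, 0.0% and 0.463%), TGCGCNC (25.1%, 16.8% and 20.9%), TGCACNC (14.1%, 14.0% and 12.5%) and TCCC and GGGA spaced by 2 bases (1.79%, 0.559% and 1.07%). Next were TGACGTCA (3.14%, 1.12% and 2.52%), CAGCTG (13.9%, 16.2% and 15.1%), TTGCGCAA (0.0%, 0.0% and 0.235%) and TTGCNNAA (10.3%, 6.7% and 9.6%), of which TTGCNNAA includes TTGCGCAA. The last were TGATTTAT (0.448%, 0.0% and 0.566%), AGATAA (7.17%, 9.5% and 8.7%) and ACCGGAAGT (0.897%, 0.559% and 1.31%). A match describes the letters in the window and shows no binding.

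Lymphoid priming genes, which multipotent progenitors express before they commit to the B or T lineage, were higher at 20 weeks in 6 of the 16 measured members, and the other 10 did not pass. The median log2 difference of the 16 was 0.61, against -0.00027 over all genes. The members that rose were Ltb, Satb1, Flt3, Tcf3, Notch1 and Ikzf1. In the fit on the HOXB4 groups 4 of the 16 passed, and leaving out 1 array gave between 2 and 7.

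Ltb encodes lymphotoxin beta, a cytokine of lymphoid cells. It was at 4.07, 4.57 and 4.08 at 6 weeks, at 4.98, 5.20 and 5.16 at 12 weeks, and at 5.48, 6.55 and 5.68 at 20 weeks. Each time group lay above the one before, and the change from 6 to 20 weeks was 1.66 ± 0.23 (3.17-fold; adjusted p = 0.00337). The 6-week levels are near the highest control probes. Satb1, a chromatin organiser of early lymphoid progenitors, was at 8.17, 7.87 and 8.41 at 6 weeks and at 9.32, 9.14 and 9.96 at 20 weeks. The groups did not overlap, and Satb1 rose by 1.33 ± 0.24 (adjusted p = 0.00832), with 50.9% of the difference reached at 12 weeks. Its other probe sets, also called over all probe sets, rose by 0.97 and 1.09.

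Flt3, the cytokine receptor that marks lymphoid-primed progenitors, was at 8.59, 7.86 and 8.17 at 6 weeks and at 9.44, 9.41 and 9.49 at 20 weeks. The 20-week arrays lay close together and above all 6-week arrays. The change was 1.24 ± 0.33 (2.37-fold; adjusted p = 0.0437, and 0.018 in the fit on the HOXB4 groups). The call of Flt3 was lost without replicate 1, 2 or 3 of 20 weeks and without replicate 2 or 3 of 6 weeks. In GFP cells Flt3 averaged 9.22 at 12 weeks and 8.03 at 20 weeks. Tcf3, which encodes the E proteins of early lymphoid cells, rose by 0.85 ± 0.21 (adjusted p = 0.0329). Ikzf1 (Ikaros) rose by 0.57 ± 0.13 (adjusted p = 0.0262), and Notch1 by 0.62 ± 0.15 (adjusted p = 0.036). Tcf3, Ikzf1 and Notch1 were not called in the fit on the HOXB4 groups (adjusted p of 0.10, 0.075 and 0.083). The recombination genes Rag1 and Rag2 differed by 1.33 and 1.44 and did not pass (adjusted p = 0.324 and 0.111). Dntt, which encodes terminal transferase, was at 9.66, 10.36 and 9.53 at 6 weeks and at 11.73, 10.90 and 11.17 at 20 weeks, a difference of 1.42 ± 0.41 that did not pass (adjusted p = 0.0632).

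B lineage genes were higher at 20 weeks in 6 of 18 measured members, with a median log2 difference of 1.49. The members that rose were Ighm, Vpreb2, Vpreb3, Cd37, Cd72 and Foxo1. The list moved with 1 array. Its mean level was lowest, 5.49, on replicate 3 of 6 weeks, and 6.88 and 7.50 on the others of that time, while the 12-week arrays lay between 7.48 and 7.88 and the 20-week arrays between 7.78 and 8.48. Without that array 1 member of the list was called and the median was 0.72. Without replicate 1 or 2 of 20 weeks 2 and 1 members were called, without replicate 1 of 6 weeks 3, and without replicate 2 of 6 weeks 10. In the fit on the HOXB4 groups 2 passed, Ighm and Cd72. In bulk samples a larger number of cells of a type and more RNA per cell cannot be told apart.

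Ighm encodes the heavy chain of immunoglobulin M. It was at 5.45, 5.46 and 5.11 at 6 weeks, at 7.47, 7.27 and 8.71 at 12 weeks, and at 8.49, 8.01 and 7.76 at 20 weeks. All arrays of 12 and 20 weeks lay above all arrays of 6 weeks. Ighm rose by 2.75 ± 0.39 (6.72-fold; adjusted p = 0.00337, and 0.0382 in the fit on the 6 arrays compared). Between 2.55 and 2.91 was the range of this change over the fits that left out 1 array, and 90% of it was reached at 12 weeks. In GFP cells Ighm averaged 4.39 at 12 weeks and 8.62 at 20 weeks.

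Igk-V21, a variable segment of the kappa light chain, had the largest rise among the named genes. It was at 4.44, 4.02 and 4.54 at 6 weeks, at 6.76, 7.74 and 8.38 at 12 weeks, and at 9.60, 10.96 and 7.34 at 20 weeks. Signals at 6 weeks were near the highest control probes, and the 20-week arrays differed widely among themselves. The rise was 4.97 ± 0.96 (31.3-fold; adjusted p = 0.0117), with a second probe set at 4.93 and another, dim one at 0.07. In GFP cells the gene averaged 5.39 at 12 and 9.73 at 20 weeks. Probe sets of immunoglobulin segments can read other segments of the family. Jchain, the joining chain of secreted immunoglobulin, was at 7.66, 6.75 and 3.52 at 6 weeks and at 9.68, 10.23 and 8.62 at 20 weeks. It rose by 3.54 ± 0.84 (adjusted p = 0.0293), and the call was lost without replicate 3 of 6 weeks or without replicate 1 or 2 of 20 weeks.

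Vpreb2 and Vpreb3 belong to the surrogate light chain family of the pre-B cell receptor. Vpreb2 was at 7.47, 9.13 and 5.73 at 6 weeks and at 10.60, 9.34 and 9.57 at 20 weeks. The probe set of Vpreb2 has a name that marks possible cross-hybridisation. Vpreb3, whose promoter with an octamer is printed above, was at 6.74, 8.27 and 5.58 at 6 weeks and at 9.62, 8.63 and 8.64 at 20 weeks. In both genes replicate 3 of 6 weeks was lowest and replicate 2 of 6 weeks came close to the 20-week arrays. Vpreb2 rose by 2.40 ± 0.64 (adjusted p = 0.0465) and Vpreb3 by 2.10 ± 0.52 (adjusted p = 0.0346). Neither was called without replicate 1 or 3 of 6 weeks or replicate 1 or 2 of 20 weeks. Vpreb2 also lost its call without replicate 3 of 20 weeks. In the fit on the HOXB4 groups neither Vpreb2 nor Vpreb3 passed (limma adjusted p of 0.12 and 0.106). Cd79a was at 8.25, 9.44 and 6.197 at 6 weeks and at 10.98, 10.23 and 9.92 at 20 weeks, a difference of 2.41 ± 0.68 that did not pass (adjusted p = 0.0579). The transcription factors Pax5 and Ebf1 differed by 1.87 and 1.47 and did not pass (adjusted p = 0.192 and 0.265).

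The receptor gene Gfra2, the syndecan Sdc4 and the sialyltransferase St3gal6, which are on no B lineage list, had levels of the same shape. Gfra2 was at 8.004, 9.37 and 5.86 at 6 weeks and at 10.88, 9.75 and 9.93 at 20 weeks. Sdc4 was at 6.41, 8.07 and 4.93 at 6 weeks and at 9.55, 8.43 and 8.70 at 20 weeks. St3gal6 was at 7.12, 7.84 and 5.61 at 6 weeks and at 9.74, 8.53 and 8.73 at 20 weeks. All 3 had their lowest level on replicate 3 of 6 weeks, as the B lineage list did. They rose by 2.45 ± 0.62, 2.42 ± 0.60 and 2.15 ± 0.52 (adjusted p of 0.038, 0.0358 and 0.0316). None of the 3 was called without that array or without replicate 1 of 20 weeks. Gfra2 and Sdc4 also lost the call without replicate 1 of 6 weeks and without replicate 2 or 3 of 20 weeks. In the fit on the HOXB4 groups none of the 3 passed (limma adjusted p of 0.118, 0.095 and 0.0691).

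**Figure D2:**
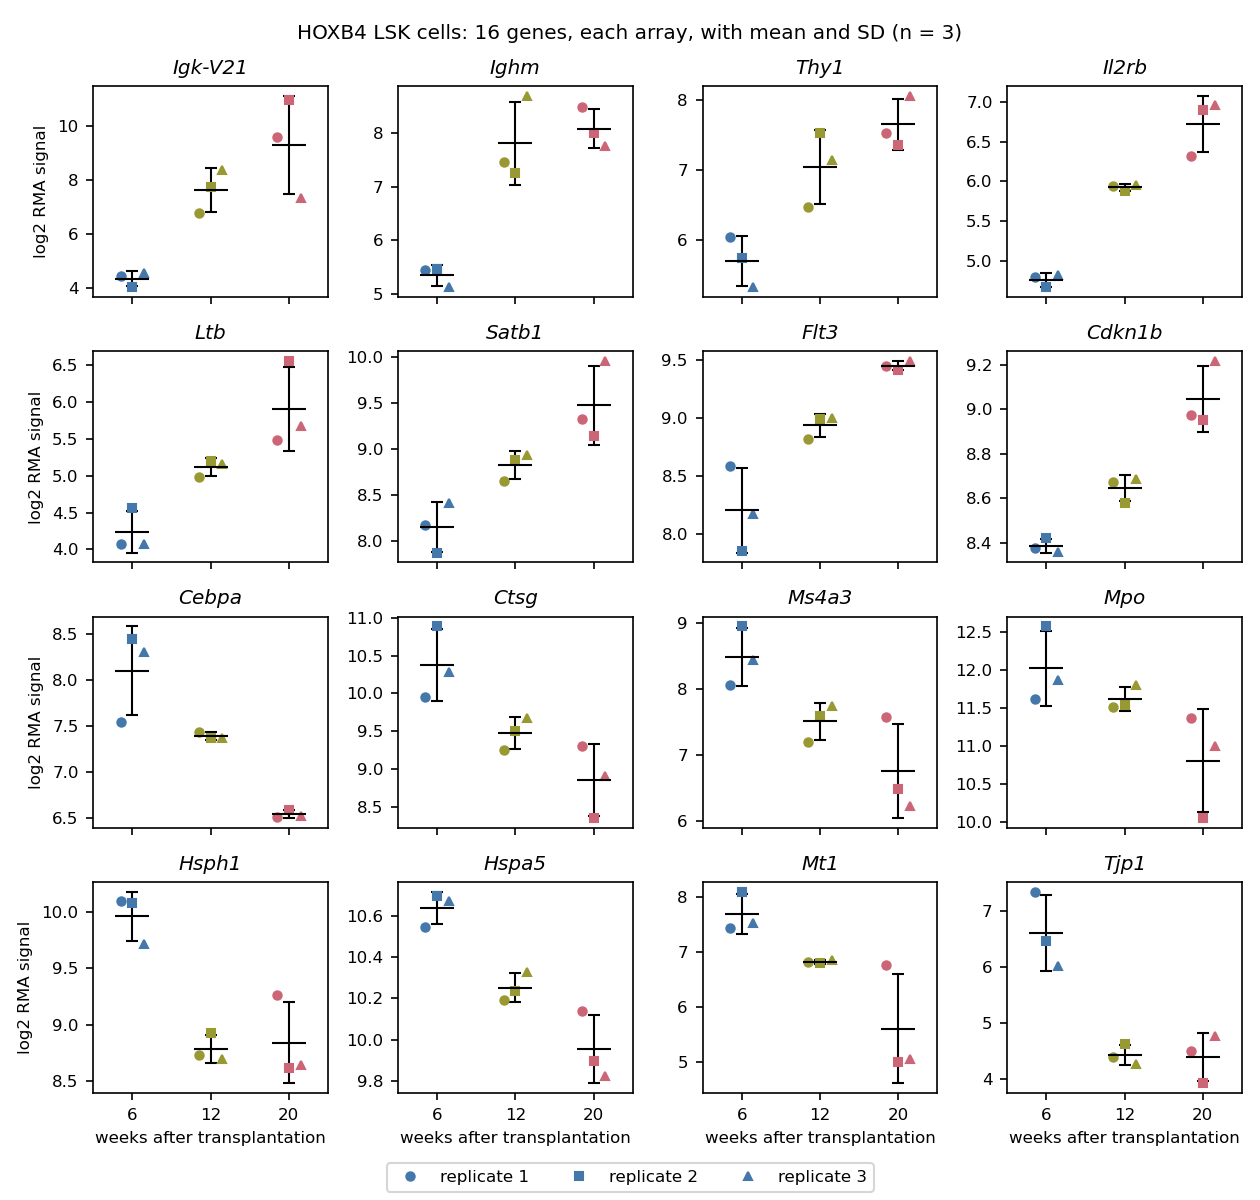
Each panel plots the log2 RMA signal of 1 gene (y axis) on the 9 HOXB4 arrays against weeks after transplantation (x axis), with bars for the mean and SD of 3 arrays and a symbol for each replicate. Cebpa falls to 6.51, 6.59 and 6.53 at 20 weeks, and Ighm rises from 5.11 to 5.46 at 6 weeks to 7.76 to 8.49 at 20 weeks.

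Of the T and NK lineage list 3 of 20 measured members rose, Il2rb, Thy1 and Bcl11b, and the median difference was 0.25. Il2rb, the beta chain of the receptors for interleukin 2 and interleukin 15, was at 4.79, 4.66 and 4.82 at 6 weeks and at 6.32, 6.90 and 6.96 at 20 weeks. All 20-week arrays lay above all 12-week arrays, which were at 5.94, 5.88 and 5.96. Il2rb rose by 1.97 ± 0.37 (3.92-fold; adjusted p = 0.0104). Its other probe sets, 1 of them as bright, differed by 0.46 and 0.58 and were not called (adjusted p of 0.243 and 0.126 over all probe sets). Thy1, a surface protein of T cells that is also low on mouse stem cells, was at 6.04, 5.75 and 5.33 at 6 weeks and at 7.54, 7.36 and 8.07 at 20 weeks. The groups did not overlap, and Thy1 rose by 1.95 ± 0.31 (3.86-fold; adjusted p = 0.00529). Bcl11b, a T lineage transcription factor, rose by 0.68 ± 0.16 from levels of 4.91 to 5.31 (adjusted p = 0.031). The T cell receptor components Cd3d, Cd3e and Cd3g differed by 0.00, 0.23 and 0.28 and did not pass.

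Antigen presentation and dendritic cell genes were fewer. Ctss, a protease of the MHC class II pathway, was the 1 member of 11 that rose (1.25 ± 0.29, adjusted p = 0.027), and the median of that list was 0.68. Without replicate 3 of 20 weeks 4 members were called, and without replicate 2 of 6 weeks 2. Without replicate 3 of 6 weeks or replicate 1 or 2 of 20 weeks Ctss was not called. Of the 12 measured dendritic cell genes Flt3 and Tcf4 rose, with a median of 0.50. Between 0 and 1 were called in the fits that left out 1 array. Tcf4, an E protein needed by plasmacytoid dendritic cells, rose by 0.90 ± 0.23 (adjusted p = 0.0411) and was called in 1 of the 6 fits that left out 1 array. Its other probe sets differed by 0.61 and 0.08 and were not called.

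Among cytokine receptors 3 of 23 rose, Il2rb, Flt3 and Il18r1. The fits that left out 1 array gave 1 or 2 higher members. Il18r1, a chain of the interleukin 18 receptor, was at 6.26, 6.24 and 6.42 at 6 weeks and at 8.61, 7.10 and 7.71 at 20 weeks. It rose by 1.502 ± 0.39 (adjusted p = 0.0436), and the call was lost in 5 of the 6 fits that left out 1 array. Homing and adhesion genes rose in 3 of 18 cases. Rac2, a GTPase of blood cells needed for stem cell homing, rose by 1.01 ± 0.15 (adjusted p = 0.00406). Selplg, the ligand of P-selectin, rose by 0.56 ± 0.12 (adjusted p = 0.0195), and the tetraspanin Cd82 by 0.65 ± 0.18 (adjusted p = 0.0488).

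TGF-beta and BMP signalling genes, which restrain the division of blood stem cells, were higher in 4 of 30 measured members, with a median of 0.10, and in 2 without replicate 2 of 20 weeks or in the fit on the HOXB4 groups. Smad1, which carries the BMP signal to the nucleus, was at 9.87, 9.69 and 9.002 at 6 weeks, at 10.33, 10.48 and 10.46 at 12 weeks, and at 11.30, 10.79 and 10.66 at 20 weeks. Each time group lay above the one before, and the rise was 1.39 ± 0.20 (2.62-fold; adjusted p = 0.00387). A second probe set of Smad1 rose by 1.51. In GFP cells Smad1 averaged 9.14 and 8.55 at 12 and 20 weeks.

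Smad7, an inhibitor that TGF-beta signalling induces, was at 6.26, 6.10 and 6.19 at 6 weeks and at 7.40, 7.03 and 7.13 at 20 weeks, with 12-week levels of 6.74, 6.84 and 6.998. It rose by 0.9995 ± 0.13 (adjusted p = 0.00264). Smad1 and Smad7 were called in the fit on the HOXB4 groups too. The ligand gene Tgfb1 rose by 0.70 ± 0.16 (adjusted p = 0.0282) and the BMP target Id3 by 1.19 ± 0.32 (adjusted p = 0.0497). Neither Tgfb1 nor Id3 was called in the fit on the HOXB4 groups (adjusted p of 0.11 and 0.13) or without replicate 1 of 6 weeks.

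CDK inhibitors and G1 cyclins were higher in 5 of 18 measured members, with a median of 0.12. Those members were Cdkn1b, Cdkn2c, Rb1, Rbl2 and Ccnd3. Cdkn1b (p27), an inhibitor of cyclin-dependent kinases, was at 8.38, 8.42 and 8.36 at 6 weeks, at 8.67, 8.58 and 8.69 at 12 weeks, and at 8.97, 8.95 and 9.22 at 20 weeks. The 3 time groups were apart from each other, and the rise was 0.66 ± 0.11 (1.58-fold; adjusted p = 0.00529). A second probe set differed by 1.49 and was not called (adjusted p = 0.0504). In GFP cells Cdkn1b averaged 8.44 and 8.25 at 12 and 20 weeks.

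Rbl2 (p130), a retinoblastoma relative of resting cells, was at 7.65, 7.62 and 7.38 at 6 weeks and at 8.04, 8.42 and 8.49 at 20 weeks. It rose by 0.77 ± 0.14 (adjusted p = 0.0106). Cdkn2c (p18) rose by 1.003 ± 0.24 (adjusted p = 0.0307), Rb1 by 0.85 ± 0.21 (adjusted p = 0.0354) and Ccnd3, a G1 cyclin, by 0.90 ± 0.23 (adjusted p = 0.0373). Cdkn1b and Rbl2 were called in every fit that left out 1 array and in the fit on the HOXB4 groups. Leaving out 1 array gave between 2 and 7 of the 18, with 2 without replicate 3 of 6 weeks or replicate 1 of 20 weeks and 7 without replicate 2 of 6 weeks. Genes of mitosis had a median of 0.43, and 1 of 28 passed, the mitotic transcription factor Foxm1 (0.72 ± 0.20, adjusted p = 0.0496). Foxm1 was not called without replicate 1 or 3 of 6 weeks or replicate 1 or 2 of 20 weeks. Other probe sets of Foxm1 differed by between -0.02 and 0.12 and were not called. The mitosis count moved with single arrays. Limma called 0 of the 28 without replicate 3 of 6 weeks (median 0.17) or replicate 1 or 2 of 20 weeks, 3 without replicate 1 of 6 weeks, 8 without replicate 2 of 6 weeks (median 0.56) and 4 without replicate 3 of 20 weeks. With all arrays 12 of the 28 had an unadjusted p under 0.05, all upward. Over all 17097 genes 3524 had such a p, 2080 of them upward. DNA replication genes had a median of 0.02, and the chromatin assembly subunit Chaf1b passed of 27. With the HOXB4 groups only or with quantile normalization 0 of the 27 were higher, and leaving out 1 array gave between 0 and 2. A single higher member in either list is close to the 3.3% of all genes called higher.

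Polycomb and related chromatin genes were higher in 4 of 22 measured members, with a median of 0.14. Cbx2 and Cbx7 encode chromobox subunits of Polycomb complex PRC1. Cbx7 was at 6.36, 6.07 and 6.13 at 6 weeks and at 6.79, 7.09 and 7.46 at 20 weeks. It rose by 0.93 ± 0.17 (adjusted p = 0.00932), and the groups did not overlap. Cbx2 rose by 0.95 ± 0.18 (adjusted p = 0.00973), the PRC1 subunit gene Phc1 by 0.54 ± 0.14 (adjusted p = 0.0447) and the H3K27 methyltransferase gene Ezh1 by 0.67 ± 0.13 (adjusted p = 0.0129). In the fit on the HOXB4 groups 1 of the 22 passed, Cbx7.

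Interferon response genes were higher in 4 of 33 measured members, with a median of 0.23. Trim30a, an interferon-induced regulator, was at 7.30, 7.74 and 7.48 at 6 weeks and at 8.24, 8.52 and 8.09 at 20 weeks, and rose by 0.77 ± 0.15 (adjusted p = 0.0112). A second probe set of Trim30a, of similar brightness, differed by 0.10 and was not called (adjusted p = 0.818). Ifi27 rose by 0.59 ± 0.13 (adjusted p = 0.02), Usp18, which removes the modifier ISG15, by 0.82 ± 0.20 (adjusted p = 0.0356) and the RNA sensor Ddx58 by 0.54 ± 0.14 (adjusted p = 0.045). In the fit on the HOXB4 groups 2 were higher. Leaving out 1 array gave between 1 and 7 higher members, 7 without replicate 2 of 6 weeks or replicate 3 of 20 weeks, and 1 higher and 1 lower without replicate 3 of 6 weeks.

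Primary granule and other genes of granulocyte-monocyte progenitors were lower at 20 weeks in 4 of the 17 measured members, and the median difference was -0.75. The members that fell were Ms4a3, Cebpa, Ctsg and Mpo. In the fit on the HOXB4 groups 3 of the 17 passed, and the fits that left out 1 array gave between 3 and 7. Cebpa is the transcription factor that starts the granulocyte-monocyte programme. It was at 7.55, 8.45 and 8.30 at 6 weeks, at 7.44, 7.37 and 7.37 at 12 weeks, and at 6.51, 6.59 and 6.53 at 20 weeks. Every time group lay below the one before, and the 20-week arrays were within 0.1 of each other. Cebpa fell by 1.56 on the log2 scale (-1.56 ± 0.23, 2.94-fold; adjusted p = 0.00387). In GFP cells it averaged 8.93 at 12 and 9.23 at 20 weeks.

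Ctsg encodes the granule protease cathepsin G. It was at 9.95, 10.89 and 10.29 at 6 weeks, at 9.25, 9.50 and 9.67 at 12 weeks, and at 9.31, 8.35 and 8.90 at 20 weeks. The end groups did not overlap, and Ctsg fell by 1.53 (-1.53 ± 0.26, 2.88-fold; adjusted p = 0.00673). Ms4a3, a membrane protein of granulocyte-monocyte progenitors, was at 8.06, 8.94 and 8.44 at 6 weeks and at 7.57, 6.47 and 6.22 at 20 weeks. It fell by 1.73 (-1.73 ± 0.33, 3.31-fold; adjusted p = 0.0112).

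Mpo, the myeloperoxidase gene whose promoter is printed above, was at 11.62, 12.57 and 11.87 at 6 weeks and at 11.37, 10.05 and 11.01 at 20 weeks. The highest array of 20 weeks lay just below the lowest of 6 weeks. Mpo fell by 1.21 (-1.21 ± 0.28; adjusted p = 0.027), was not called in the fit on the HOXB4 groups (adjusted p = 0.11) and lost its call without replicate 2 of either time. The protease genes Elane and Prtn3, which share the motif GAGGAAGT with Mpo, differed by -1.61 and -1.34 and did not pass (adjusted p = 0.0579 and 0.0749). In GFP cells Ctsg, Ms4a3 and Mpo averaged 11.82, 10.15 and 12.93 at 20 weeks.

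Myeloid transcription factors were lower in 3 of 14 measured members, with a median of -0.41. Beside Cebpa these were Cebpb, a factor of emergency granulopoiesis, and Trib1, a pseudokinase that lowers C/EBP alpha protein. Cebpb was at 6.83, 7.04 and 7.11 at 6 weeks and at 5.98, 6.24 and 6.43 at 20 weeks, and fell by 0.78 (-0.78 ± 0.15; adjusted p = 0.0104). The other probe sets of Cebpb, 1 of them nearly as bright, differed by -0.03 and 0.17 and were not called. Trib1 fell by 0.51 (-0.51 ± 0.10; adjusted p = 0.014). With the mean of all probe sets of a gene 1 member of this list was called. Single members of other myeloid lists fell as well. Hdc, the histamine-forming enzyme of basophils and mast cells, was at 6.81, 7.69 and 7.65 at 6 weeks and at 6.17, 5.91 and 5.91 at 20 weeks, a fall of 1.38 (-1.38 ± 0.21; adjusted p = 0.00406). Mrgpra2b, on the mature neutrophil list, fell by 1.63 (-1.63 ± 0.32; adjusted p = 0.0122). The other 13 measured genes of that list did not pass. Siglecf, an eosinophil receptor, fell by 0.97 (-0.97 ± 0.21; adjusted p = 0.0213). Of 14 measured mast cell and basophil genes 1 was called, and of 6 measured eosinophil genes 1. In the fit on the HOXB4 groups 0 of the 6 eosinophil genes passed.

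**Figure D3:**
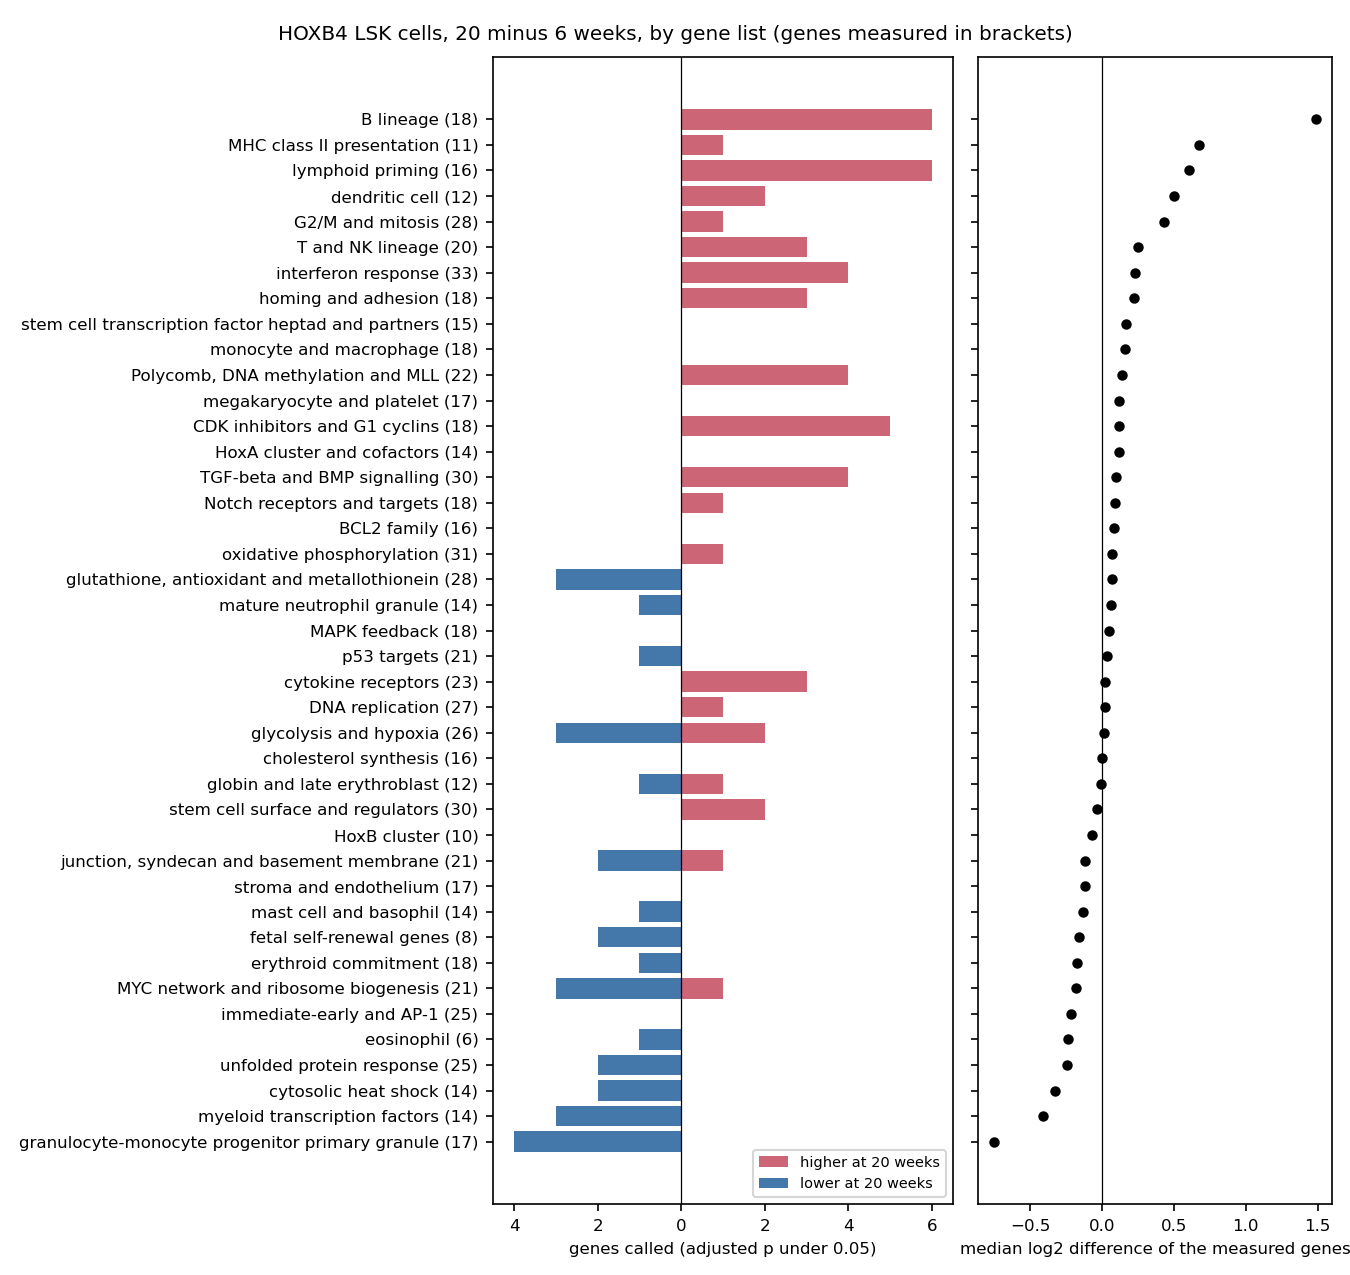
The left panel gives, for each of 41 gene lists (y axis, number of measured genes in brackets), the genes called higher (red) or lower (blue) at 20 weeks, and the right panel the median log2 difference of the measured genes. B lineage (median 1.49) and lymphoid priming (0.61) have 6 higher members each, and the primary granule list (-0.75) has 4 lower members.

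Cytosolic heat shock genes were lower in 2 of 14 measured members, Hsph1 and Dnaja1, with a median of -0.33. The difference was below 0 for each of the 14. Leaving out 1 array gave between 1 and 5 lower members, 5 without replicate 3 of 6 weeks, quantile normalization gave 6 and the fit on the HOXB4 groups 1. Hsph1, a large chaperone that exchanges nucleotides on Hsp70, was at 10.09, 10.08 and 9.71 at 6 weeks, at 8.73, 8.92 and 8.69 at 12 weeks, and at 9.26, 8.62 and 8.65 at 20 weeks. It fell by 1.12 (-1.12 ± 0.16, 2.17-fold; adjusted p = 0.00387), and 105% of that difference was reached at 12 weeks. Dnaja1, a co-chaperone of Hsp70, fell by 0.61 (-0.61 ± 0.14; adjusted p = 0.0291). Hspa1b, an inducible Hsp70 gene, was at 8.16, 9.15 and 3.96 at 6 weeks and at 5.64, 3.57 and 3.71 at 20 weeks. Replicate 3 of 6 weeks was as low as the 20-week arrays, and the difference of -2.79 ± 1.09 did not pass (adjusted p = 0.162).

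Unfolded protein response genes were lower in 2 of 25 measured members, Hspa5 and Hyou1, and the median was -0.24. Quantile normalization called 4 lower, and leaving out 1 array gave between 1 and 3. Hspa5 (BiP), the main chaperone of the endoplasmic reticulum, was at 10.55, 10.69 and 10.67 at 6 weeks, at 10.19, 10.24 and 10.33 at 12 weeks, and at 10.14, 9.90 and 9.82 at 20 weeks. Each time group lay below the one before, and Hspa5 fell by 0.68 (-0.68 ± 0.12, 1.61-fold; adjusted p = 0.0065). A second probe set fell by 0.74. Hyou1, another chaperone of that compartment, fell by 0.47 (-0.47 ± 0.12; adjusted p = 0.038), and its call was lost in 5 of the 6 fits that left out 1 array. The other genes with an ER stress response element printed above did not pass. Calr differed by -0.65, Creld2 by -0.34, Hsp90b1 by -0.31, Pdia6 by -0.24, Canx by -0.21, Dnajc3 by -0.11 and Syvn1 by 0.29.

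Antioxidant and metallothionein genes were lower in 3 of 28 measured members, Mt1, Srxn1 and Gclm, with a median of 0.07. Mt1, a metallothionein that binds zinc and copper, was at 7.44, 8.10 and 7.54 at 6 weeks, at 6.82, 6.80 and 6.87 at 12 weeks, and at 6.77, 5.01 and 5.06 at 20 weeks. Replicate 1 of 20 weeks stayed near the 12-week level while the other two were lower. Mt1 fell by 2.08 (-2.08 ± 0.35, 4.23-fold; adjusted p = 0.00673), and a dimmer probe set differed by -0.03 and was not called. The tested probe set of Mt1 has a name that marks possible cross-hybridisation. Srxn1 (sulfiredoxin) fell by 0.77 (-0.77 ± 0.15; adjusted p = 0.0126), and Gclm, a subunit of the enzyme that starts glutathione synthesis, by 0.46 (-0.46 ± 0.12; adjusted p = 0.0478).

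Genes of growth and metabolism moved in both directions. In the MYC and ribosome biogenesis list 3 of 21 fell and 1 rose, with a median of -0.18. Polr1b, a subunit of RNA polymerase I, was at 6.81, 6.59 and 6.19 at 6 weeks and at 5.67, 5.48 and 5.67 at 20 weeks, a fall of 0.92 (-0.92 ± 0.17; adjusted p = 0.0102). The nucleolar genes Ddx21 and Nop56 fell by 0.52 and 0.46 (adjusted p of 0.0314 and 0.0266), and the MAX partner gene Mxd4 rose by 0.68 (adjusted p = 0.0245). Of 26 glycolysis and hypoxia genes 3 fell and 2 rose, with a median of 0.01. The enzymes Tpi1 and Ldha were among those that fell, by 0.63 and 0.47 (adjusted p of 0.0108 and 0.022). Ddit4, an mTOR inhibitor, rose by 1.12 ± 0.23 (adjusted p = 0.0174), and the glucose transporter gene Slc2a1 by 0.68 ± 0.15 (adjusted p = 0.0214). None of the 26 was called in the fit on the HOXB4 groups with limma, where Tpi1 had an adjusted p of 0.055. In the fit of all arrays 6 had an unadjusted p under 0.05 upward and 5 downward. Over all 17097 genes 3524 had such a p, 2080 of them upward.

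Tjp1, the tight junction scaffold ZO-1, was at 7.34, 6.47 and 6.01 at 6 weeks, at 4.39, 4.64 and 4.28 at 12 weeks, and at 4.51, 3.93 and 4.77 at 20 weeks. It fell by 2.21 (-2.21 ± 0.32, 4.62-fold; adjusted p = 0.00387) and had reached 98.4% of the difference at 12 weeks. In GFP cells it averaged 7.30 at 12 and 6.65 at 20 weeks, near the 6-week HOXB4 level. Gja1 (connexin 43) fell by 1.38 (-1.38 ± 0.34; adjusted p = 0.0346) and was not called without replicate 1 or 2 of 6 weeks or replicate 2 of 20 weeks. Of the fetal self-renewal list Lin28a and Hmga2, the RNA-binding protein and the chromatin protein of fetal stem cells, fell by 0.94 and 0.80 (adjusted p of 0.00917 and 0.0395), out of 8 measured. Lin28a was at 4.35 to 4.89 at 6 weeks, near the highest control probes. Hmga2 was at 8.33, 7.48 and 8.17 at 6 weeks, at 6.83, 6.65 and 6.64 at 12 weeks, and at 7.33, 7.10 and 7.12 at 20 weeks, so that it was lowest at 12 weeks.

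The regulators linked to stem cell self-renewal gave no call. Meis1 was at 7.43, 7.598 and 8.71 at 6 weeks and at 6.84, 7.89 and 7.27 at 20 weeks, a difference of -0.58 ± 0.32 (adjusted p = 0.34). Prdm16 differed by -0.29 ± 0.19 (adjusted p = 0.423), Hoxa9 by 0.16 ± 0.18 (adjusted p = 0.669), Hemgn by 0.12 ± 0.22 (adjusted p = 0.81) and Mecom by 0.05 ± 0.10 (adjusted p = 0.824). With 3 arrays a group a p above the threshold does not show that levels were equal. Of the 30 stem cell surface and regulator genes 2 passed, Thy1 and Flt3, and the median was -0.04. Of the 15 transcription factors of the stem cell heptad and their partners 4 had an unadjusted p under 0.05, all upward, and limma called 0. Over all 17097 genes 3524 had such a p, 2080 of them upward. The HoxB cluster had a median of -0.07, with 0 of 10 called by limma and 0 at an unadjusted p under 0.05. Of these 10 genes 2 remained when the dimmest genes were left out. Over all 15 arrays Hoxb1 averaged 3.80 and Hoxb8 2.90, and Mecom averaged 4.17. These means lie below the highest control probe of the HOXB4 arrays, at 4.43, so that they may be background. For genes this dim the test cannot tell whether expression changed.

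Other large changes concerned genes on few of the lists. Dhrs3, a reductase of retinal, was at 8.25, 8.16 and 8.48 at 6 weeks, at 9.13, 9.09 and 9.30 at 12 weeks, and at 9.55, 10.09 and 9.91 at 20 weeks. It rose by 1.55 ± 0.16 and had the lowest adjusted p of all genes, 0.00204. Myl10, a myosin light chain, was at 6.65, 6.19 and 6.14 at 6 weeks and at 9.40, 7.97 and 8.33 at 20 weeks, a rise of 2.24 ± 0.28 (adjusted p = 0.00264). Cmah, which makes the sialic acid Neu5Gc, rose by 1.96 ± 0.33 (adjusted p = 0.00673). Klf3, a repressor of the Krüppel-like family, rose by 1.43 ± 0.17 (adjusted p = 0.00262), and Lsp1, an actin-binding protein of leukocytes, by 1.56 ± 0.20 (adjusted p = 0.00264). Dzip1, a protein of the primary cilium, rose by 1.96 ± 0.31 (adjusted p = 0.00472). These 6 genes were called in every fit that left out 1 array and in the fit on the HOXB4 groups.

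Mab21l2, a developmental gene of the eye, was at 6.16, 5.93 and 6.10 at 6 weeks and at 10.79, 9.29 and 6.65 at 20 weeks. The rise of 2.85 ± 0.67 (adjusted p = 0.028) came from 2 of the 3 arrays of 20 weeks, and the call was lost without either of them or without replicate 1 or 3 of 6 weeks. The histone gene H4c8 was at 3.71, 4.95 and 6.40 at 6 weeks and at 7.42, 7.92 and 7.03 at 20 weeks, a rise of 2.44 ± 0.46 (adjusted p = 0.0104). Hbb-b2, an adult beta globin, was at 6.47, 6.11 and 7.05 at 6 weeks and at 9.74, 9.98 and 8.10 at 20 weeks. It rose by 2.72 ± 0.40 (adjusted p = 0.00387), but its other probe sets differed by 1.33 and 0.24 and were not called, and the tested probe set has a name that marks possible cross-hybridisation. Ank1, a protein of the red cell skeleton, fell by 1.03 (-1.03 ± 0.23; adjusted p = 0.0245), and Klf1, a factor of red cell precursors, by 1.28 (-1.28 ± 0.34; adjusted p = 0.0478). Of the 12 measured globin and late erythroblast genes 1 was called higher and 1 lower.

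The 12-week arrays placed the 796 called genes between both ends. A gene was counted as steady where 25% to 75% of its difference had been reached at 12 weeks, as early where more had been reached, as late where less had been reached, and as outside where the 12-week mean lay beyond either end by more than 25% of the difference. Steady genes were 379, early genes 280, late genes 98 and genes outside 39. The median share reached at 12 weeks was 67.8% for higher and 55.2% for lower genes. In the step from 6 to 12 weeks 268 genes passed (1.57% of all), and 168 of these are among the 796. In the step from 12 to 20 weeks 43 genes passed (0.252%), and 27 of these are among the 796. Of the 796 genes 0 passed both steps in the same direction with limma, and 79 had an unadjusted p under 0.05 in both. Both steps share the 12-week arrays, and the steps share arrays with the whole interval. Steady therefore describes group means.

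**Figure D4:**
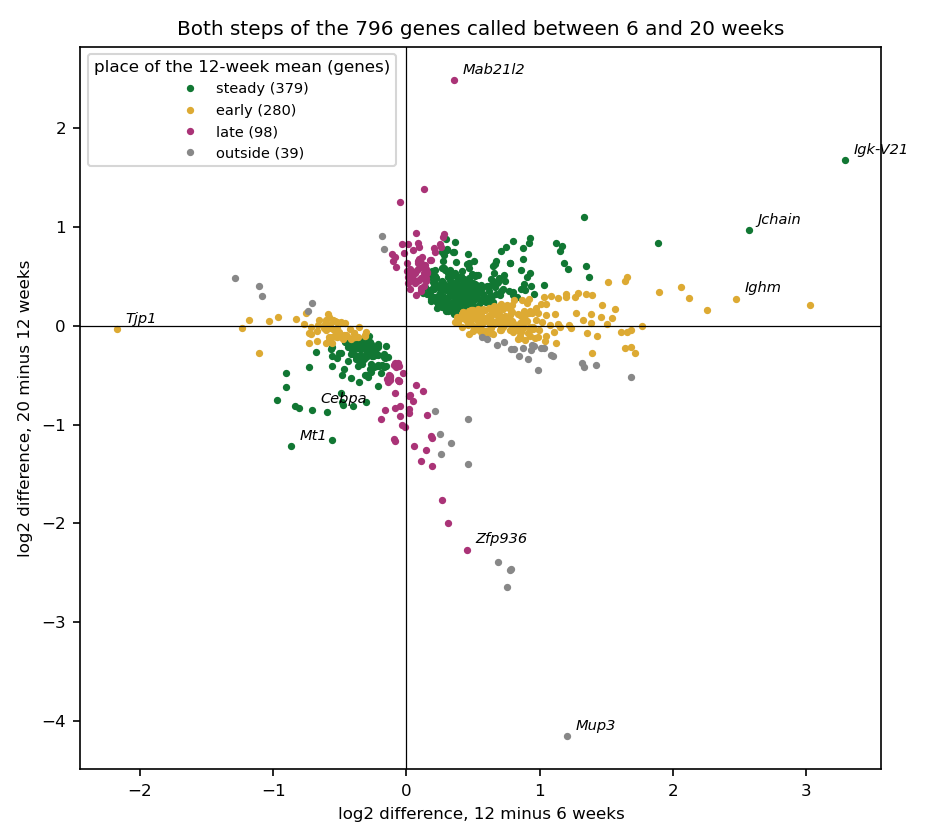
Each point is 1 of the 796 called genes, with its log2 difference from 6 to 12 weeks on the x axis and from 12 to 20 weeks on the y axis, coloured by the place of the 12-week mean. Mup3 lies far below the other points, with 20-week levels under 3, and Tjp1 had reached 98.4% of its fall at 12 weeks.

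A group of 19 genes fell at least 2-fold, was late or outside, and changed less from 6 to 12 than from 12 to 20 weeks. In 13 of them the 12-week mean was above the 6-week mean. Mup3, a major urinary protein, was at 5.68, 4.55 and 7.06 at 6 weeks, at 7.05, 6.83 and 7.02 at 12 weeks, and at 2.96, 2.62 and 2.85 at 20 weeks. It fell by 2.95 (-2.95 ± 0.40; adjusted p = 0.00299) to the level of control probes, and its GFP means were 2.94 and 2.61. The probe set has a name that marks possible cross-hybridisation among the urinary protein genes. The zinc finger gene Zfp936 was at 5.64, 4.49 and 6.09 at 6 weeks, at 6.24, 5.69 and 5.65 at 12 weeks, and at 4.03, 3.54 and 3.21 at 20 weeks. It fell by 1.81 (-1.81 ± 0.31; adjusted p = 0.00713).

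Speer4cos and Speer8-ps1, members of a spermatogenesis-associated family, fell by 1.68 and 1.71 (adjusted p of 0.041 and 0.0436). Both were highest among the 6-week arrays on replicate 3, at 8.25 and 8.11, and neither was called without it. Adam4, a metalloprotease gene known from testis, was at 6.96, 7.28 and 7.48 at 6 weeks and at 6.00, 5.89 and 6.11 at 20 weeks, a fall of 1.24 (-1.24 ± 0.17; adjusted p = 0.00299). In 10 of the 19 genes the 20-week mean was within 0.5 of both GFP means. The share of all genes within that limit was not counted, so this number shows no return to GFP levels particular to these genes. A different measure was taken over the 796 called genes. Their 20-week mean was closer than the 6-week mean to the GFP mean of 20 weeks in 59.5%, and over all genes in 59.2%.

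**Figure D5:**
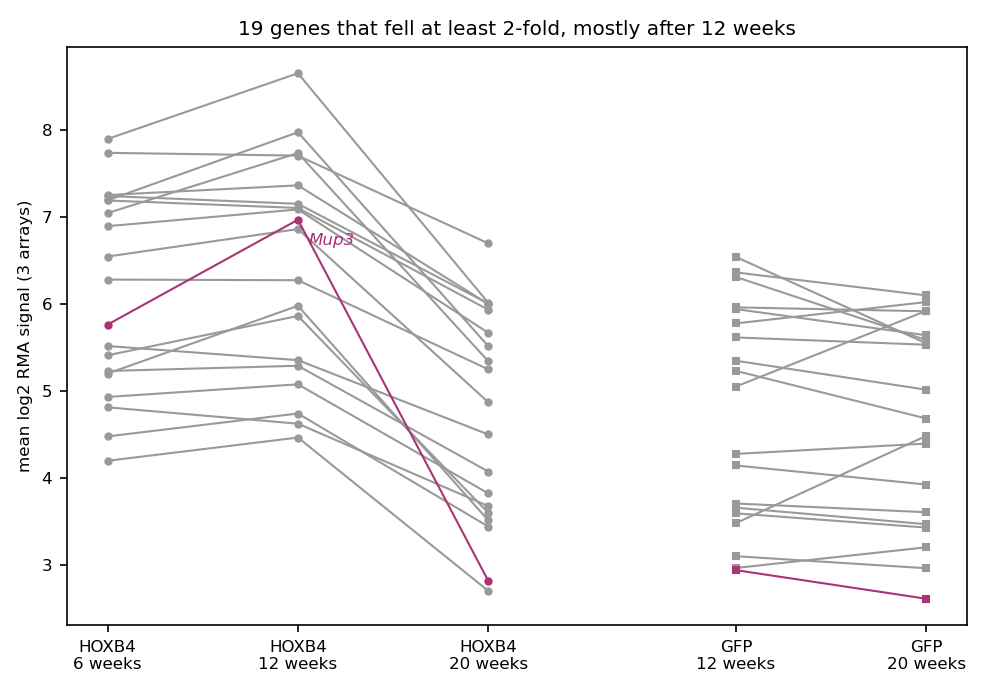
Each line joins the mean log2 RMA signals (y axis, 3 arrays each) of 1 of 19 genes that fell at least 2-fold and late or outside, in HOXB4 cells at 6, 12 and 20 weeks and in GFP cells at 12 and 20 weeks (x axis). Mup3, in purple, ends at 20-week levels of 2.62 to 2.96, and its GFP means are 2.94 and 2.61.

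Many calls depended on single arrays. Of the genes described here, Cbx2, Cbx7, Cdkn1b, Cmah, Ddit4, Dhrs3, Dzip1, Ezh1, H4c8, Hbb-b2, Ighm, Igk-V21, Il2rb, Klf3, Lsp1, Ltb, Myl10, Rac2, Rbl2, Satb1, Smad1, Smad7, Thy1 and Trim30a rose and Adam4, Cebpa, Cebpb, Ctsg, Hdc, Hspa5, Hsph1, Lin28a, Mrgpra2b, Ms4a3, Mt1, Mup3, Polr1b, Srxn1, Tjp1, Tpi1, Trib1 and Zfp936 fell in every fit that left out 1 array, and each of the other called genes named so far lost its call in at least 1 of these fits. Of the 101 called genes that the naming rule picked, 32 lost the call without replicate 1 of 6 weeks, 15 without replicate 2 and 34 without replicate 3. Without replicate 1, 2 or 3 of 20 weeks 39, 38 and 26 of them lost it.

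Some array properties moved with the comparison, and their part in the results was not tested except as stated. Replicate 1 of 6 weeks had a 3' minus 5' Gapdh signal of 3.76, against 0.81 to 2.02 on the other 14 arrays, a measure of RNA quality or labelling. With that measure as a covariate 621 genes were called, 401 of them among the 796. Replicate 3 of 6 weeks was lowest for the B lineage list and highest for immediate-early genes, whose mean level was 7.26 there and between 6.01 and 6.499 on the other arrays of both times. Egr1, an immediate-early gene, was at 6.72, 6.78 and 11.15 at 6 weeks and at 6.40, 7.02 and 6.62 at 20 weeks, and did not pass (adjusted p = 0.308). The 17 measured genes of stroma and endothelium had mean levels of 4.99 to 5.08 at 6 weeks and 4.94 to 5.04 at 20 weeks. Among the 30 genes with the largest changes 15 were called in the fit on the HOXB4 groups, 7 of the 15 rises and 8 of the 15 falls. Among the other called genes described, Ank1, Bcl11b, Cbx2, Cbx7, Cd37, Chaf1b, Cmah, Ddx58, Dnaja1, Dzip1, Ezh1, Gfra2, Gja1, Hmga2, Hyou1, Ikzf1, Lin28a, Mxd4, Rb1, Rbl2, Srxn1, St3gal6, Tpi1 and Trib1 each had at least 1 further probe set that was not called. Of these genes, Bcl11b, Cbx7, Cmah, Dzip1, Ezh1, Gfra2, Gja1, Hmga2, Mxd4 and St3gal6 also had a further probe set called the same way. For St3gal6 such probe sets rose by 1.40, 2.03 and 1.56, and the one not called was dim, at 2.37. Of the 30 genes with the largest changes 13 had another probe set, and 6 were read by a probe set whose name marks possible cross-hybridisation. Beside the genes for which this is stated above, the tested probe sets of Hdc, Hyou1, Ifi27, Nop56 and Tpi1 carry such a name.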

How the data were processed

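The authors deposited log2 expression values for 45141 probe sets, which the submitters' processing notes credit to RMA, run in Partek 6.5. Per the labels' protocols, 20 ng of total RNA were amplified with NuGEN reagents and labelled with biotin. Detection calls were not used, and the number of arrays limits the precision.

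Gene names came from the platform annotation, updated by gene identifier against GRCm38.p6. Of them 28898 had 1 symbol, while 551 with several symbols and 15692 without an entry were left out. Of the 28898, 28689 matched by identifier and 209 kept the annotation's symbol. The brightest probe set, by its mean on all 15 arrays, stood for each of 17097 genes, 7180 of which had more than 1.

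All 15 arrays entered limma 3.58.1 (R 4.3.3; lmFit, eBayes) with a mean for each of 5 groups leaving 10 residual degrees of freedom beside 4.55 prior ones. P-values are two-sided and were adjusted by Benjamini-Hochberg over all genes, with calls at an adjusted p under 0.05. An exact two-sided permutation test of 3 against 3 arrays cannot go below 0.1. The script was tested on simulated data.

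The comparison, the 41 gene lists and the naming rule were chosen with earlier results of these data known. Named were the 15 largest rises and 15 largest falls among called genes (without predicted genes, olfactory and vomeronasal receptors and small RNAs), Kit, Ly6a, Hoxb4, Prdm16, Hemgn, Mecom, Meis1 and Hoxa9, up to 4 members of each list, and up to 4 steady, early and late genes, by smallest p. Genes named outside the rule, among them Cd79a, Rag1, Rag2, Pax5, Ebf1, Foxo1, Ccnd3, Elane, Prtn3, Egr1, Hspa1b, Cd3d, Cd3g, Calr, Canx, Creld2, Dnajc3, Hsp90b1, Pdia6 and Syvn1, were chosen after their values were seen. Promoters came from RefSeq on GRCm38.p6.

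The alternatives were other sets of arrays, filters, probe set rules, scalings, moderation, array weights, the Gapdh covariate, the replicate number as a block, and leaving out each array.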

Additional observations from a re-analysis of the deposited data

How the results depend on the processing

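The counts depended most on which arrays set the spread. The fit on only the arrays compared called 1 gene (1 higher, 0 lower), with 2111 genes at an unadjusted p under 0.05. The 3 HOXB4 groups only gave 214 genes (171 higher, 43 lower), no moderation 381 (260 higher, 121 lower) and array weights 231 (180 higher, 51 lower). Leaving out 1 array gave 397 to 1116 called genes, 288 to 817 higher and 109 to 299 lower. The lowest count, 397, was without replicate 2 of 20 weeks, and without replicate 1 of 20 weeks 150 were lower. The replicate block gave 643 genes. No pairing by replicate number was visible: deviations of same-numbered arrays correlated at -0.03, -0.07 and 0.07. These values cannot show that the samples were unpaired. Other settings kept the count of called genes within 1.5 times the reported one, with 706 for the mean of the probe sets of a gene, 718 for trend and robust moderation, 731 for quantile normalization, 780 without the dimmest genes, 820 after centring and 621 with the Gapdh covariate. Over all probe sets 1165 were called. Of the 101 named genes that were called, 54 lost the call in the fit on the HOXB4 groups and 100 in the fit on only the arrays compared. In the settings tried 0 of them changed direction, but many of these settings could not show a reversal. Fits on fewer groups, without the dimmest genes, with other moderation or with the replicate block leave the difference itself unchanged. Where the arrays of both times do not overlap, leaving out 1 array cannot reverse it. Other probe sets of a gene, taken singly, were not part of this count.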

Other observations

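Several lists of other lineages and programmes had few calls between 6 and 20 weeks in HOXB4 cells. Over all genes 4.66% were called, 3.3% higher and 1.36% lower. At that share few calls arise in lists of this size, so the counts of calls are no trait of these lists. An unadjusted p under 0.05 was reached by 3524 of the 17097 genes, 2080 of them upward. Of 17 megakaryocyte and platelet genes limma called 0 and 4 had an unadjusted p under 0.05, all upward, with a median of 0.12. Of 18 monocyte and macrophage genes limma called 0, with 3 upward and 1 downward at an unadjusted p under 0.05. Erythroid commitment genes had a median of -0.17, and Klf1 was the member of 18 called. At an unadjusted p under 0.05, 7 of the 18 were lower and 0 higher. In the fit on the HOXB4 groups limma called 0 of them. Red cell genes that did not pass were Gata1 (-0.77, adjusted p = 0.126), Car1 (-1.57, adjusted p = 0.11) and Ermap (-1.71, adjusted p = 0.0663). Of 31 oxidative phosphorylation genes the ATP synthase gene Atp5o rose by 0.57 ± 0.15 (adjusted p = 0.0458), and a second probe set differed by 0.11 and was not called. Of 21 p53 targets the nuclease gene Aen fell by 0.70 (-0.70 ± 0.13, adjusted p = 0.00917), at 8.15, 8.48 and 8.18 at 6 weeks and at 7.597, 7.68 and 7.42 at 20 weeks. Aen kept its call in every fit that left out 1 array, and its other, dimmer probe sets differed by -0.39 and -0.30 and were not called.

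The neutrophil genes S100a8 and S100a9 differed widely among the 6-week arrays. S100a8 was at 10.39, 9.64 and 5.44 at 6 weeks and at 10.32, 8.83 and 9.40 at 20 weeks. S100a9 was at 10.10, 10.31 and 6.49 at 6 weeks and at 10.84, 9.30 and 9.92 at 20 weeks. Replicate 3 of 6 weeks was lowest for both, as it was for the B lineage list, and neither gene passed (adjusted p = 0.556 and 0.45).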
